A study of Mus musculus with 4 samples.

Results

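Memory and innate-like CD8 T cells of the mouse ovary were taken from single-cell RNA counts as cells that carry T cell and CD8 transcripts together with transcripts of memory or natural killer (NK) type lymphocytes. The members were chosen by these measured UMI counts, so the genes of the rule are described and no test of a single rule gene is reported. Counts given as a percentage of all genes tested were made with the rule genes left in. A cell belonged to them if its barcode had 1 hashtag, at least 500 genes and under 10% mitochondrial UMIs (unique molecular identifiers, 1 per captured transcript). It also needed at least 2 summed UMIs of Cd3d, Cd3e and Cd3g, at most 1 of Cd79a and Ms4a1, at least 2 of Cd8a and Cd8b1, none of Cd4, and at least 3 of the 7 memory genes Ccl5, Il2rb, Ly6c2, Klra7, Klre1, Gzmk and Cxcr6. This gave 173 members among 4918 kept leukocytes. The 224 cells that met every condition but the last are called the other CD8 T cells.

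The cells came from ovaries of C57BL/6J females aged 10 to 12 weeks, 5 of which had received gonadotropin, the hormone that drives follicle growth and ovulation, and 5 saline (the untreated group), 48 h before collection. The gonadotropin preparation and its dose are not given in the sources used here. Viable CD45+ leukocytes were sorted, a hashtag antibody marked the cells of each mouse, and each group was pooled into 1 droplet library. Treatment therefore cannot be told apart from pool and library, and no p-value here covers the variation from library to library.

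CD8 T cells recognise peptides on MHC class I molecules and can kill the cells that present them. Memory cells outlast a response, or arise without one under the influence of cytokines, and are known for the cytokine receptor subunit Il2rb, the surface protein Ly6c2, the adhesion receptor Cd44 and quick release of the chemokine Ccl5. Some CD8 T cells also carry receptors first described on NK cells, such as Klre1 and the Ly49 receptor Klra7, and CD8 T cells with Ly49 receptors and the transcription factor Ikzf2 (Helios) are known as regulatory cells.

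The gonadotropin mice gave 96 members (22, 17, 11, 37 and 9 in mice 1 to 5) and the untreated mice 77 (12, 25, 12, 6 and 22). At the threshold, 19 CD8 T cells had exactly 3 memory gene UMIs and were members, and 25 had 2 and were not. The median member had a sum of 19. The median member held 10318 UMIs, with 9874 in the gonadotropin and 10404 in the untreated group, against 7324 over all kept cells. A further 20 barcodes met the transcript conditions but carried 2 hashtags (12 gonadotropin, 8 untreated) and were left out. The libraries shared 4 barcodes, none of them a member. B cells, which should lack these transcripts, had a median of 6652 UMIs and serve as the background for free RNA.

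Of the 6 marker genes given for these cells, Cd8b1 had a UMI in 96.0% of members, Ly6c2 in 77.5%, Il2rb in 74.0%, Ccl5 in 60.7%, Ikzf2 in 20.8% and Klre1 in 14.5%. In B cells these shares were 0.302%, 1.29%, 0.647%, 3.19%, 0.0863% and 0.173%. Ikzf2 did not mark the members as a whole. It had a UMI in 15.2% of the other CD8 T cells, and after each cell was thinned to 2000 UMIs the shares were 8.67% and 6.70%. The rule itself asked for Cd8b1 or Cd8a and for the memory genes, so these shares describe the choice and do not check the label. Klre1, Klra7 (6.94% of members) and Ikzf2, the only marker of the 6 outside the rule, were found in a minority. NK cells were kept cells with no UMI of Cd3d, Cd3e or Cd3g and at least 2 summed UMIs of Ncr1, Klrb1c and Klra8. They also had at most 1 of Cd79a and Ms4a1 and at most 2 of Lyz2. Their share with Ncr1 is therefore largely set by that choice, while Tyrobp was not used in it. Transcripts of NK cells were rare: Ncr1 had a UMI in 3.47% of members against 99.0% of NK cells, and Tyrobp in 10.4% against 98.8%. The constant chain Trac of the alpha beta receptor had one in 91.3% and the delta chain Trdc in 4.05%. The granulosa gene Inha had a UMI in 0 of 173 members, which limits the cells with a UMI to 1.73% and says nothing of cells whose transcripts were not captured, and of 14 granulosa and luteal genes 9 had no UMI in any member.

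Myeloid transcripts came from few members. In 4 of the 173, 8 myeloid genes summed to at least 10 UMIs, while no other member had more than 9 and the median was 2. Of these, 3 held 33782, 33250 and 30289 UMIs and carried 285, 243 and 640 myeloid UMIs, the macrophage lysozyme Lyz2 among them. They made up 24.2% of the member UMIs of untreated mouse 1, 14.1% of untreated mouse 5 and 7.47% of gonadotropin mouse 4. Over the longer list, all 15 myeloid genes had a UMI in some member, and their sum ranged from 150 to 2541 CPM in gonadotropin and from 186 to 3062 CPM in untreated mice. Whether these cells are doublets within 1 mouse, which share a hashtag, was not tested, and values that turn on them are given with and without them.

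The members were not one kind of cell, and more of them depended on Ly6c2 than on any other memory gene. Without Ly6c2 in the rule, 127 members remained and 46 fell out, 17 of which had Ly6c2 as their only memory gene. Leaving out Il2rb would lose 18 members, Cxcr6 15, Ccl5 7, Gzmk 1, and Klre1 or Klra7 none. The cells that needed Ly6c2 had levels of some memory-linked genes close to those of the other CD8 T cells, and lay between in others. Levels here are CPM, the UMIs of a gene per 1000000 UMIs pooled over the cells, a description with no test, since the rule sets the groups. The 4 myeloid-rich members, all among the 127, are left out of these levels, which leaves 123 cells. Ly6c2 itself stood at 481 CPM in the 123 and 528 CPM in the 46, so its level did not separate them. The 46 are by definition low in the sum of the remaining memory genes. Ccl5 stood at 5269 CPM in the 123 and 4.06 CPM in the 46, and Il2rb at 271 and 42.6 CPM. The part of this choice in the levels below was not tested. Itgb1, the beta chain of fibronectin-binding integrins, stood at 484 CPM in the 123, 54.8 CPM in the 46 and 57.3 CPM in the other CD8 T cells. The calcium-binding protein S100a6 stood at 492, 8.12 and 4.86 CPM in the same order, and S100a4 at 307, 0 and 2.91 CPM. Tbx21 (T-bet), a factor of effector lymphocytes, stood at 73.3, 8.12 and 0.486 CPM. Naive-linked genes ran the other way. Lef1, a factor of naive and early memory T cells, was at 796, 1625 and 1481 CPM, and the lymph node homing receptor Ccr7 at 135, 266 and 275 CPM. Cd44 lay between, at 137, 38.6 and 12.6 CPM, as did the chemokine receptor Cxcr3 at 97.5, 20.3 and 2.43 CPM. Tbx21 also lay between, with a UMI in 4 of the 46 and 1 of the 224 other CD8 T cells. So did Eomes, a factor of memory and NK cells (49.9, 18.3 and 5.83 CPM), and the interleukin-18 receptor chain Il18rap (118, 28.4 and 2.43 CPM). The 46 cells were therefore not identical to the other CD8 T cells in every gene. Dapl1, known from resting CD8 T cells, was highest in the 46, at 822 CPM, against 260 and 388 CPM. Ly6c2 has a close paralog, Ly6c1, and how reads shared between them were counted is not given in the sources used here.

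**Figure D1:**
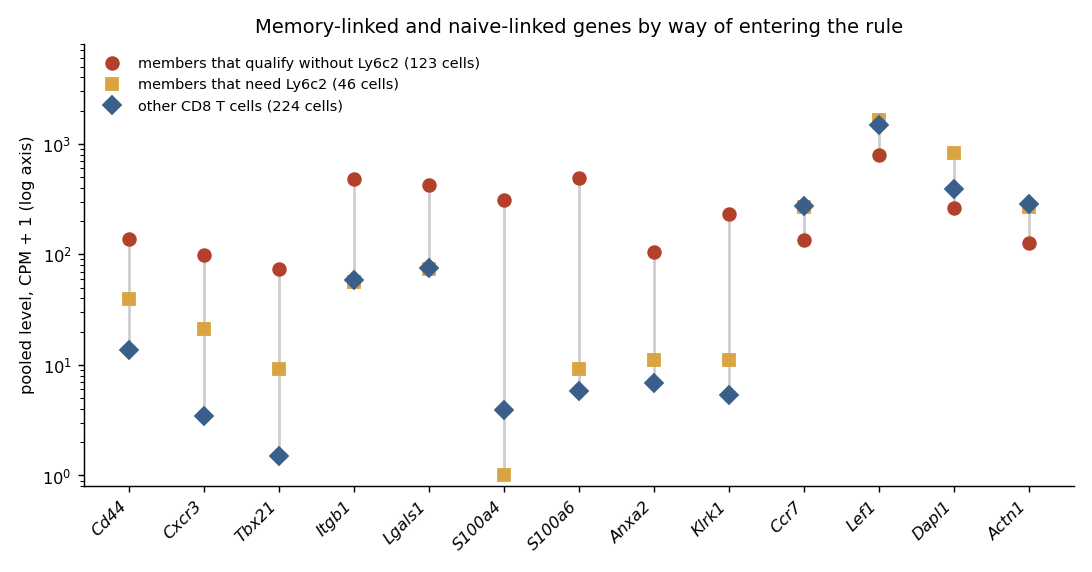
Pooled levels of memory-linked and naive-linked genes (CPM plus 1, log axis) in members that meet the rule without Ly6c2 (123 cells, the 4 myeloid-rich members left out), members that need Ly6c2 (46 cells) and other CD8 T cells (224 cells). For Itgb1, Lgals1, S100a6 and Anxa2 the members that need Ly6c2 sit beside the other CD8 T cells, as they do for Ccr7 and Actn1. For Cd44, Cxcr3 and Tbx21 they lie above the other CD8 T cells.

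NK type receptors marked a second division. The 29 members with Klre1 or Klra7 (20 gonadotropin, 9 untreated, in 9 mice) also held other genes of this kind that the rule did not use. The activating receptor Klrk1 (NKG2D) had a UMI in 62.1% of them, against 25.0% of the 144 members with neither and 3.13% of the other CD8 T cells. Klrc2, an NKG2 family receptor, was seen in 55.2%, 9.03% and 0%, the last being 0 of 224 cells (at most 1.34% with a UMI, from 3 counts). After thinning to 2000 UMIs, Klrk1 stood at 37.9%, 14.6% and 1.34%, and Klrc2 at 27.6%, 2.08% and 0%. Ikzf2 had a UMI in 37.9%, 17.4% and 15.2% of cells, and in 24.1%, 5.56% and 6.70% after thinning, so at equal depth the 144 did not lie above the other CD8 T cells. Within the 29 cells Ikzf2 stood at 449 CPM, the granzyme Gzma at 477 CPM and Eomes, a factor of memory and NK cells, at 89.3 CPM, against 26.7, 1.46 and 5.83 CPM in the other CD8 T cells. Their Lef1 (545 CPM) and Dapl1 (18.5 CPM) were lower than in the other CD8 T cells. Reads of Ly49 receptors can be split between near-identical copies, so values of single Klra genes are uncertain. NK marker genes were higher in these 29 cells than in the rest, with Ncr1 at 52.3 CPM, Klrb1c at 105 CPM and Fcer1g at 209 CPM, against 1147, 1072 and 2231 CPM in NK cells. Of these genes, Ncr1 and Klrb1c were used to choose the NK cells. The pooled levels came from few cells, with a UMI of Ncr1 in 3, of Klrb1c in 8 and of Fcer1g in 7 of the 29. The part of these cells in the receptor values was not tested. None of the 29 was myeloid-rich.

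A further set, 26 members with Cxcr6 but no Ly6c2, Klre1 or Klra7, differed from the other CD8 T cells in some genes linked to tissue-dwelling T cells and not in others. Cxcr6 is the receptor for the chemokine Cxcl16. The 1 myeloid-rich cell is left out of the values, which are of 25 cells. In these cells S100a6 reached 1367 CPM and S100a4 834 CPM. The chemokine receptor Ccr2 stood at 150.0 CPM and Itga1, an integrin chain of tissue-resident cells, at 128 CPM, against 0 and 0.486 CPM in the other CD8 T cells. Tox, a factor of repeatedly stimulated T cells, was at 653 CPM against 208, and the inhibitory receptor Pdcd1 (PD-1) was seen in 6 of the 25 cells and in 0 of the 224 others (at most 1.34% with a UMI). Itgae, the other classical residency integrin, went the other way, at 13.2 CPM in 3 of the 25 cells against 61.7 CPM in 72 of the 224 others. The residency marker Cd69 stood at 176 against 189.9 CPM. Ikzf2 stood at 216 CPM, with a UMI in 5 of the 25 cells, so it was not high in the cells with Klre1 or Klra7 alone. In members with Ly6c2 and neither Klre1 nor Klra7 it stood at 18.4 CPM with Cxcr6 and 24.7 CPM without. Over all members, 4 of the 18 listed tissue residency genes were measured, at 50 CPM or more in either class. Of these 4, 0 were higher than in the other CD8 T cells in all 8 mice and 2 were lower. Beside them, 5.29% and 3.54% of all 3422 genes at that level were higher and lower. So few genes do not describe residency as a whole. Dividing cells were few. A UMI of Mki67 was found in 8 members of 6 mice, and 1 cell held 57 of the 89 UMIs.

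T cell receptor segments were spread over the members. A Trbv segment was captured in 52 members (30.1%) and in 65 of the 224 other CD8 T cells (29.0%), from 21 and 20 different segments. No segment was seen in more than 5 members (Trbv3, Trbv12-1, Trbv12-2, Trbv13-2 and Trbv29), or in more than 3 members of 1 mouse. Trav segments were captured in 40 members and 24 kinds were seen, led by Trav12-2 in 5 cells. At this capture a large clone among the members was not seen, but most cells gave no segment, and libraries made from transcript ends are not built to read them.

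Compared with the other CD8 T cells of the same mouse, the members were set apart by genes of migration, cytoskeleton and effector function. The comparison covers the 8 mice with at least 10 members, uses CPM of all UMIs, and is a description because the rule drew the line. Of 3422 genes at 50 CPM or more in either class, 181 (5.29%) were higher in the members in all 8 mice and 121 (3.54%) were lower in all 8. S100a6 differed most, at 457 ± 224 CPM (SD, n = 8) against 6.89 ± 12.2, followed by S100a4 at 324 ± 254 against 3.17 ± 5.16. The receptors Klrk1 (171 ± 142 against 5.99 ± 9.69 CPM) and Cxcr3 (85.9 ± 55.4 against 2.46 ± 5.05 CPM) came with Il18rap, a chain of the interleukin-18 receptor (84.2 ± 27.9 against 2.10 ± 4.30 CPM). Tbx21 stood at 53.8 ± 23.4 against 0.492 ± 1.39 CPM and Ifngas1, a noncoding RNA beside the interferon gamma gene, at 99.0 ± 41.4 against 8.80 ± 14.2 CPM.

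Several genes were not detected at all in the other CD8 T cells of these mice. Among them were the endocytic adaptor Hip1 (91.9 ± 41.3 CPM in members), the platelet and leukocyte protein Plek (77.9 ± 53.0 CPM), the receptor Slamf7 (53.0 ± 28.0 CPM) and Chn2 (59.1 ± 64.8 CPM). Ctla2a, Samd3, Anxa2, Cd44, Chst11, Itgb1 and Hopx completed the leading genes, with log2 differences of 2.56 to 3.82. The MHC class II gene H2-Ab1 had a log2 difference of 2.79 ± 2.62 (SD, n = 8), which dropped to 0.76 without the 4 myeloid-rich members. For the other leading genes named here the difference without those members was 2.59 to 5.33.

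Genes lower in the members had smaller differences. Ccr9, the gut and thymus homing receptor, stood at 32.7 ± 18.3 CPM against 115 ± 40.8, and Itgae at 17.4 ± 13 against 65.6 ± 31.4 CPM. Rgcc, a regulator of the cell cycle, was at 92.6 ± 31.7 against 274 ± 63.4 CPM. Slc6a19, Als2cl, Fam241a, Usp28, Actn2, Aven and Lztfl1 had log2 differences of -0.94 to -1.78. By lists, 9 of 15 measured memory-linked cytoskeleton genes and 5 of 8 cytotoxicity genes were higher in all 8 mice, beside 5.29% of all genes. In contrast, 9 of 15 naive and recirculating genes and 6 of 9 memory transcription factors (a list that holds Tcf7, Lef1 and Bach2) were lower in all 8. So were 15 of 25 ribosomal protein genes, beside 3.54% of all genes.

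**Figure D2:**
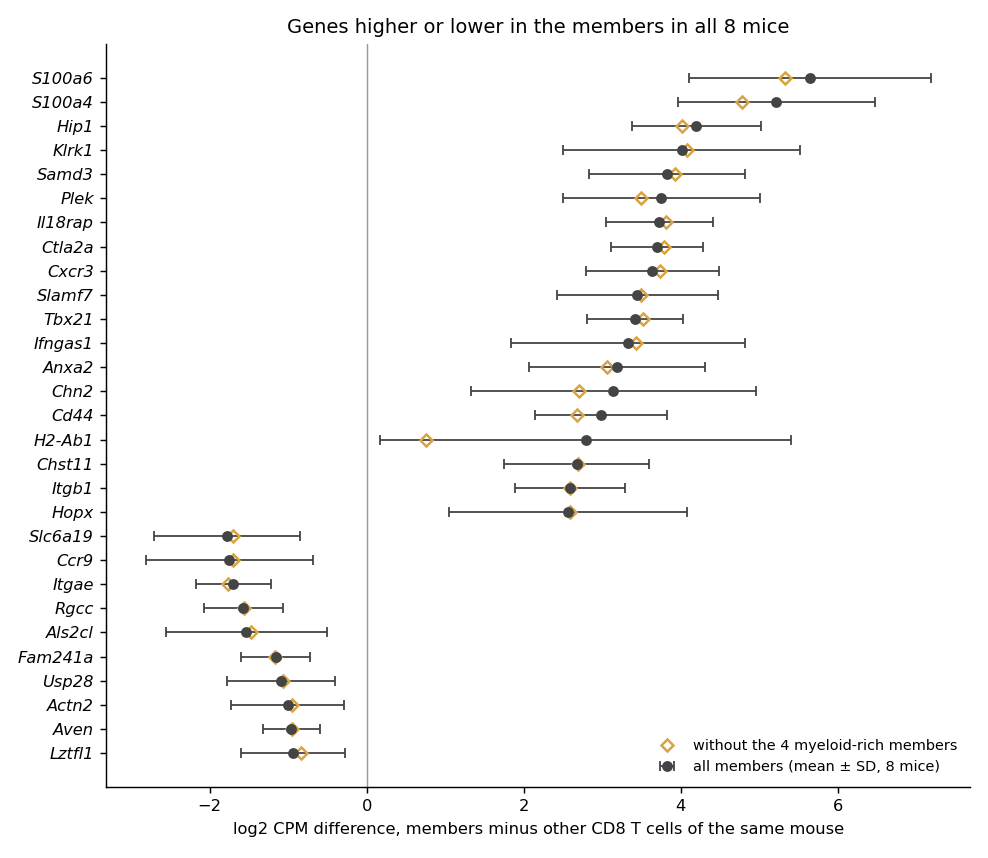
Log2 CPM differences (prior count 1) between members and other CD8 T cells of the same mouse for the leading higher and lower genes reported here, as mean ± SD over 8 mice, with open symbols for the mean without the 4 myeloid-rich members. H2-Ab1 moves from 2.79 to 0.76, and for Hip1, Plek, Slamf7 and Chn2, at 0 in the other cells, the size depends on the prior count.

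The first comparison between treatments asked how much of each population the members made up. Members were 50.5% ± 5.82 (SD, n = 5) of the CD8 T cells in gonadotropin mice and 36.4% ± 8.83 in untreated mice. By mouse the shares were 56.4, 47.2, 50, 56.1 and 42.9% against 24.0, 45.5, 44.4, 33.3 and 34.9%. The lowest gonadotropin mouse (9 of 21 CD8 T cells) lay below the 2 highest untreated mice, so the groups overlapped. With so few cells the counting error of 1 mouse was wide, from 21.8 to 66.0% (95%, Clopper-Pearson) for that mouse. Members were 3.83% ± 0.822 against 3.01% ± 0.814 of all kept leukocytes and 15.3% ± 2.72 against 11.6% ± 4.59 of T cells, again with overlap.

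No test is attached to these shares, because the genes of the rule did not have the same level in both groups. Summed over all CD8 T cells of a mouse, the 7 memory genes stood at 3135 ± 587 CPM (SD, n = 5) in gonadotropin and 1417 ± 594 CPM in untreated mice, without overlap. An exact permutation of the mice was run on these sums only to decide whether the shares would be tested. Its p is not given, since these are values of the rule itself. More such cells and more of these transcripts per cell cannot be told apart by a rule that counts them. When at least 5 memory UMIs were asked for, the shares of CD8 T cells were 43.4% ± 4.96 and 27.7% ± 4.45, with no overlap. Without Ly6c2 they were 37.2% ± 3.01 and 25.6% ± 6.04, also with no overlap. With each cell thinned to 2000 UMIs before the rule they were 28.7% ± 12.4 and 16.5% ± 9.62, with overlap. The makeup of the members by mouse overlapped too. The cells that needed Ly6c2 were 26.0% ± 3.06 of members against 28.4% ± 15.9, and those with Klre1 or Klra7 were 21.9% ± 10.7 against 11% ± 9.22 (SD, n = 5).

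**Figure D3:**
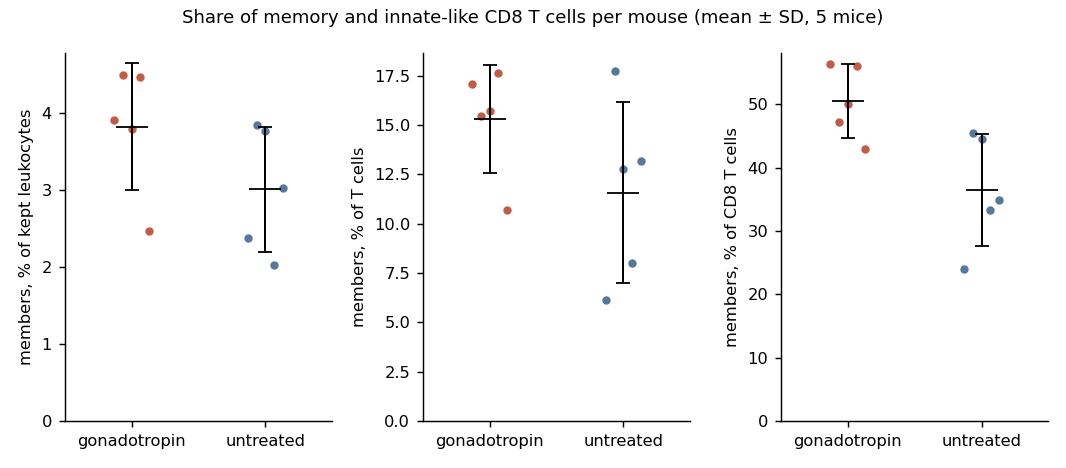
Members as a percentage of kept leukocytes, T cells and CD8 T cells in each of 5 gonadotropin and 5 untreated mice (points), with mean ± SD. The groups overlap in each panel, most narrowly for CD8 T cells, with 42.9 to 56.4% against 24.0 to 45.5%.

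The second comparison asked which genes differed by treatment within the members. Counts were summed per mouse for gonadotropin mice 1 to 4 and untreated mice 1, 2, 3 and 5, since gonadotropin mouse 5 and untreated mouse 4 had under 10 members, and tested with edgeR's quasi-likelihood test. The CPM of this comparison are per 1000000 UMIs of the genes tested, with TMM scaling. Of 3316 genes, none was higher at an adjusted p of 0.05 (0%) and 1 was lower, the AP-1 subunit Fos (0.0302%). An unadjusted p under 0.05 was reached by 254 genes (7.66%), 253 of them outside the rule, and DESeq2 also called 0 higher and 1 lower.

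Fos stood at 25.4, 89.2, 107 and 103 CPM in gonadotropin mice 1 to 4 and at 225, 193, 429.7 and 296 CPM in untreated mice 1, 2, 3 and 5. All gonadotropin mice lay below all untreated mice. The log2 fold change was -1.77 ± 0.31 (SE; edgeR adjusted p = 0.0473). These levels rest on 5, 14, 11 and 36 UMIs against 26, 47, 47 and 59. The call was not kept without the 4 myeloid-rich members (log2 -1.58, edgeR adjusted p = 0.23) or with RLE in place of TMM scaling (adjusted p = 0.052), and leaving out 1 mouse ended it in 7 of 8 cases, while the fold change stayed between -1.11 and -2.03 in all 18 alternatives that tested Fos.

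Fos belongs to the early response genes, which cells switch on within minutes of a stimulus and which include the AP-1 subunits Junb and Jund, the RNA decay factor Zfp36 and the NF-kB inhibitor Nfkbia. Of the 34 genes listed, 22 were tested in the members and 21 of them had a negative fold change, with a median of -0.51, where 48.8% of all genes tested were positive and their median was -0.01. An unadjusted p under 0.05 on the lower side was reached by 8 of the 22, beside 3.95% of all genes, and 7 had mice that did not overlap on the lower side, beside 2.96%. The gene lists were chosen with earlier results of these data known, so these counts are a description and the list was not tested. With a memory gene sum of at least 5, 15 of 20 were negative and the median was -0.24, and with thinned cells the 4 genes that could be tested were all negative, with a median of -0.22. Without the myeloid-rich members 20 of 21 were negative, the median was -0.35 and 8 had such a p, beside 4.15% of all genes. Zfp36l2 was the 1 positive gene of the 22 over all members.

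Junb, a partner of Fos in AP-1, stood at 269.6, 299, 262 and 292 CPM against 719, 398, 393 and 577 CPM. The gonadotropin mice were alike and all below the untreated mice, with a log2 fold change of -0.87 ± 0.19 that did not pass (edgeR adjusted p = 0.28). Zfp36, which shortens the life of cytokine transcripts, stood at 25.4, 38.2, 58.2 and 45.8 CPM against 277, 86.2, 137 and 90.4 CPM, again without overlap (-1.72 ± 0.39, edgeR adjusted p = 0.28). Untreated mouse 1, which held a myeloid-rich cell, was the highest for both genes, and without those members the values were -0.70 ± 0.17 for Junb and -1.43 ± 0.35 for Zfp36. Nfkbia (-0.85 ± 0.24) overlapped through untreated mouse 5 at 166 CPM, below 2 gonadotropin mice. Jund (-0.52 ± 0.17), Ier2 (-0.63 ± 0.26) and Sik1 (-0.83 ± 0.34) did not overlap, the activation marker Cd69 (-0.65 ± 0.21) did, and none of the 5 passed (edgeR adjusted p of 0.32 to 0.56).

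**Figure D4:**
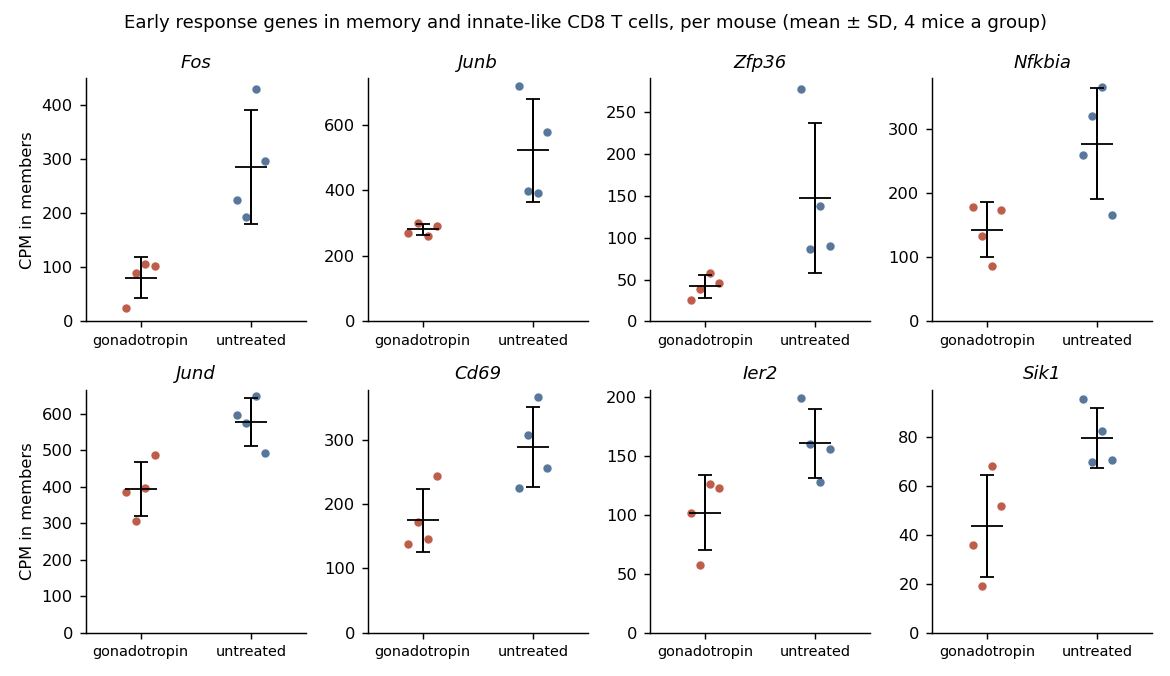
Levels (CPM of tested genes, TMM scaled) of 8 early response genes in the members of 4 gonadotropin and 4 untreated mice (points), with mean ± SD. For Fos, Junb, Zfp36, Jund, Ier2 and Sik1 every gonadotropin mouse lies below every untreated mouse, and only Fos passed at an adjusted p of 0.05.

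The upstream sequences of Fos, Junb and Zfp36 are shown because these are the early response genes with the smallest p. They are the 120 bases before the RefSeq start on the gene's own strand (GRCm38.p6), with TGACG, the core of the cAMP response element, and the CArG box bound by serum response factor in capitals, searched on both strands. The motifs share no base in the windows shown.
Fos (chr12:85473770-85473889, plus strand): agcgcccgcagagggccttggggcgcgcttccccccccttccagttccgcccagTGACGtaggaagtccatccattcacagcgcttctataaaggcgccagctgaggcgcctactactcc
Junb (chr8:84978749-84978868, minus strand): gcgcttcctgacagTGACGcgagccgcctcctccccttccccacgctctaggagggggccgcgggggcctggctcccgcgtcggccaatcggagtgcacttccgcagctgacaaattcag
Zfp36 (chr7:28379229-28379348, minus strand): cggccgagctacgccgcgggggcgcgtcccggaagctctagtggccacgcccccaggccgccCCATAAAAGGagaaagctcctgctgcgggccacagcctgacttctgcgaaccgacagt
Within 250 upstream bases, TGACG was found for 16 of the 26 early response genes with a window in the table and for 19.8% of all 27025 genes. The CArG box was found for 2 of the 26 and for 1.62% of all genes. A match is a description of letters and says nothing about binding in these cells.

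The same genes were read in the other lymphocytes, where each comparison had its own samples of these mice. In the other CD8 T cells of 10 mice, 11 of 2546 genes passed as higher (0.432%) and 3 as lower (0.118%). Junb fell there by 0.96 on the log2 scale (SE 0.15, edgeR adjusted p = 0.000398), with no overlap, and was -0.63 ± 0.13 in NK cells (edgeR adjusted p = 0.053), where 2 of 5236 genes passed as higher (0.0382%) and 1 as lower (0.0191%). Fos was -0.95 ± 0.29 in the other CD8 T cells (adjusted p = 0.14) and -0.39 ± 0.22 in NK cells (0.69). Zfp36 was -0.58 ± 0.26 and -0.26 ± 0.22. Of the early response list, 16 of 20 tested genes were negative in the other CD8 T cells, with a median of -0.23, and 16 of 30 in NK cells, with a median of -0.04. In NK cells an unadjusted edgeR p under 0.05 was reached by 8 of the 30 as higher and 6 as lower. Of all 5236 genes there, 213 and 206 reached it. In the other CD8 T cells it was 0 and 7 of the 20, beside 155 and 153 of 2546 genes. At an adjusted p of 0.05, 1 listed gene passed as higher in NK cells and 1 as lower in the other CD8 T cells. The difference of the change did not pass for Fos (members minus other CD8 T cells -0.85 ± 0.39, members minus NK cells -1.55 ± 0.37) or Junb (0.07 ± 0.24 and -0.26 ± 0.22), with edgeR adjusted p of 0.86 or more for each.

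Summed over all CD8 T cells, members and others together, more genes passed: 39 of 4987 higher (0.782%) and 54 lower (1.08%). Fos fell by 1.28, Junb by 0.87, Zfp36 by 1.05, Nfkbia by 0.83, Jund by 0.39 and Sik1 by 0.92 on the log2 scale (edgeR adjusted p of 5.66e-05 to 0.0298). These sums mix the classes, and the members took a larger share of them in the gonadotropin group. Genes of the rule were not taken out of the counts of 39 and 54, and how many of them passed is not given here.

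No gene passed on the higher side in gonadotropin members. Of the 10 tested effector transcription factors 9 were positive, with a median of 0.37, and 4 had an unadjusted p under 0.05, beside 3.71% of all genes. This list too was chosen with earlier results of these data known, and its counts are a description. Runx2 and Tbx21 had mice that did not overlap on the higher side, beside 2.14% of all genes. Runx2, a factor of long-lived memory T cells, stood at 96.7, 210.2, 175 and 88.8 CPM against 52.0, 49.3, 45.7 and 85.4 CPM, without overlap (1.15 ± 0.34, edgeR adjusted p = 0.32). Tbx21 stood at 66.1, 76.4, 107 and 71.6 CPM against 34.7, 36.9, 36.6 and 65.3 CPM, also without overlap (0.77 ± 0.33, edgeR adjusted p = 0.57). In both genes untreated mouse 5 was close to the lowest gonadotropin mouse. Runx3 (0.50 ± 0.21) and Stat4 (0.40 ± 0.19), which carries the interleukin-12 signal, overlapped. Without the myeloid-rich members 9 of the 10 factors were positive and 4 had such a p, beside 3.79% of all genes.

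The 5 genes with the smallest p on the higher side were Lrba, Abtb2, Itgb1, Abl2 and Lgals1, with edgeR adjusted p of 0.32 each. Lrba, a protein of vesicle traffic that protects CTLA-4, stood at 249.3, 338, 204 and 284 CPM against 156, 115, 183 and 181 CPM, without overlap (0.81 ± 0.21). The kinase Abl2 (102 against 48.7 CPM in the mean) did not overlap, while Abtb2 (0.84 ± 0.22) did. Itgb1 stood at 432, 586, 1184 and 335 CPM against 381, 267, 201 and 291 CPM, so gonadotropin mouse 3 was far above the rest and gonadotropin mouse 4 lay within the untreated range (1.07 ± 0.30). Lgals1, the lectin galectin-1, stood at 559.6, 312, 1271 and 289 CPM against 277, 111, 174 and 341 CPM, with the same high mouse (1.35 ± 0.39). That mouse had 11 members, and 4 of them carried Klre1 or Klra7. With a memory gene sum of at least 5 the values were 0.36 for Itgb1 and 0.32 for Lgals1.

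Other groups gave values of the same kind. The integrin alpha chain Itgal had a log2 fold change of 0.81 ± 0.26 and its partner Itgb2 0.67 ± 0.28. Il18rap was without overlap at 0.65 ± 0.26, and 19 of 21 T cell receptor signalling genes were positive with a median of 0.23, among them the kinase Fyn (0.59 ± 0.17), the phosphatase Ptpn22 (0.45 ± 0.17) and Ptprc (CD45, 0.22 ± 0.10). Without the myeloid-rich members 15 of 19 of these signalling genes were positive, with a median of 0.14. The NK type receptors Klrk1 (1.04 ± 0.45) and Klrd1 (0.47 ± 0.21) overlapped. Gzma was read from single mice: it stood at 279.8, 0, 388 and 195 CPM against 0, 0, 0 and 171 CPM, so 1 gonadotropin and 1 untreated mouse went against the others. None of these genes passed. On the lower side, next to the early response genes, stood the kinase Pim1 (-0.77 ± 0.20) and the receptor Igf1r (-1.65 ± 0.45), both at an edgeR adjusted p of 0.32, and Ccr7 (-0.52 ± 0.20), Tsc22d3, a glucocorticoid target (-0.53 ± 0.23), and the granule proteoglycan Srgn (-0.30 ± 0.14), at 0.56 to 0.63. Srgn was -0.13 without the myeloid-rich members. Ribosomal protein genes were negative in 24 of 25 and mitochondrially encoded genes in 11 of 12, with medians of -0.22 and -0.18. An unadjusted edgeR p under 0.05 on the lower side was reached by 14 and 4 of them, beside 3.95% of all genes. Mice did not overlap on the lower side in 11 and 3, beside 2.96%. Ribosomal protein genes were also negative in 23 of 25 in both the other CD8 T cells and NK cells. There 13 and 8 had such a p, beside 153 of 2546 and 206 of 5236 genes. Depth per member was 9874 against 10404 UMIs. The part of depth and of RNA content in these values was not tested.

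**Figure D5:**
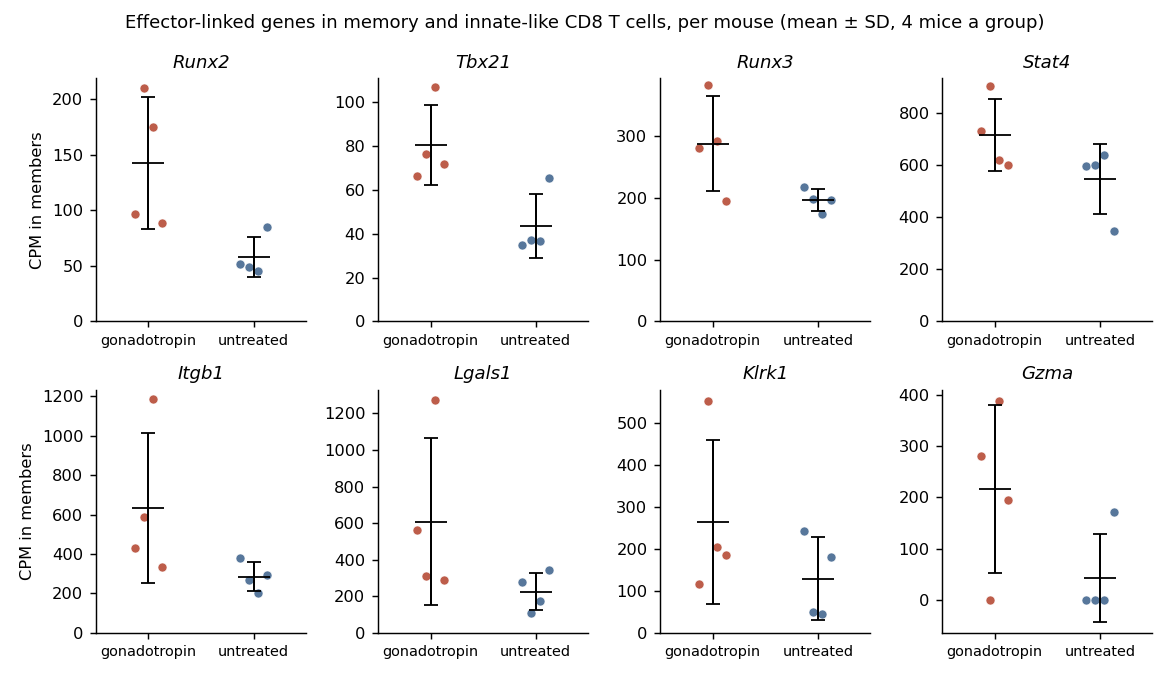
Levels (CPM of tested genes, TMM scaled) of 8 effector-linked genes in the members of 4 gonadotropin and 4 untreated mice (points), with mean ± SD. Runx2 and Tbx21 do not overlap between the groups, Itgb1 and Lgals1 are led by gonadotropin mouse 3, and Gzma has no UMI in 1 gonadotropin and 3 untreated mice.

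Tests of the difference of the change found 1 gene. Between members and other CD8 T cells 0 of 3887 genes passed as higher (0%) and 1 as lower (0.0257%), with 4.17% at an unadjusted p under 0.05. That gene was Fhit, a nucleotide hydrolase known as a tumour suppressor, with a log2 difference of -2.14 ± 0.40 (edgeR adjusted p = 0.00917). In members Fhit stood at 153, 134, 19.4 and 65.9 CPM against 113, 242, 247 and 45.2 CPM, and in the other CD8 T cells at 457, 194, 101, 100.3 and 88.3 CPM in gonadotropin against 10.6, 140.2, 141, 0 and 30.5 CPM in untreated mice. The groups overlapped in both classes, and neither change passed by itself (-0.74 ± 0.44 and 1.62 ± 0.44, edgeR adjusted p = 0.75 and 0.091). The call ended without gonadotropin mouse 1 (edgeR adjusted p = 0.27), untreated mouse 1 (0.058) or untreated mouse 2 (0.070). Between members and NK cells 0 of 4918 genes passed in either direction (0%), with 4.76% at an unadjusted p under 0.05 in edgeR. DESeq2 was not run on these differences.

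The last comparison asked whether members in a given state were more frequent after treatment. A cell was in a state if, thinned to 2000 UMIs, it had a UMI of the state's genes (2 for cycling), in the same 4 against 4 mice, for which the smallest exact permutation p is 0.0286. Cytotoxic cells (Gzma, Gzmb or Prf1) were 21.2% ± 10.3 of members in gonadotropin and 11.8% ± 6.76 in untreated mice (SD, n = 4 each, exact two-sided permutation p = 0.20). The share was 1.04% in B cells and 91.2% in NK cells. Chemokine-expressing cells (Ccl3, Ccl4, Xcl1 or Ifng) were 15.2% ± 10.4 against 9.71% ± 6.00. Residency (Itgae, Itga1 or Zfp683) stood at 12.1% ± 6.85 against 10.6% ± 2.67, Ikzf2 at 9.17% ± 5.98 against 10.4% ± 10.9 and Ly49 receptors at 5.56% ± 2.69 against 3.22% ± 4.03. Inhibitory receptors stood at 17.3% ± 9.04 against 12.5% ± 14.8. None of these states passed (exact permutation p adjusted over 9 states, 0.99 or 1). On unthinned counts cytotoxic cells were 57.6% ± 4.86 against 31.9% ± 9.64 and chemokine-expressing cells 46% ± 13.2 against 23.4% ± 6.59, both without overlap (exact permutation p = 0.0286, adjusted p = 0.13). The thinned shares rest on 27 and 22 positive cells of 158.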

How the data were processed

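The deposited matrix holds UMI counts per gene and cell barcode, which the authors did not normalize; bcl2fastq, Cell Ranger, Seurat and the build mm10 are named per the submitters' processing notes, without versions. Mice were taken from the authors' deposited hashtag calls. Members and gene lists were chosen with earlier results of these data known. The rule was applied to 6468 barcodes and 32285 genes. Counts were summed per mouse over mice with at least 10 cells (113030 to 405668 UMIs per mouse) and tested with edgeR 4.0.16 (filterByExpr, TMM, quasi-likelihood F test) at a Benjamini-Hochberg adjusted p of 0.05. Differences of the change were tested as an interaction with the mouse as a term. Alternatives were RLE factors, DESeq2 1.42.0, no filter on low counts, other memory gene sums, thinning and leaving out mice or cells.

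Shares of states were compared by exact permutation over mice. Intervals cover counting error only, at 95%. Genes named are those that passed, or else the 5 smallest p in each direction at a mean log2 CPM of 5 or more, for the members against other CD8 T cells the 20 and 10 largest differences shared by all mice, and genes of the 37 lists. On simulated data with 3129 genes, edgeR recovered 55 of 100 genes changed by a fold of 2 and 88 of 100 changed by a fold of 4, with 5 false calls. The changed genes were drawn from those above 50 CPM, and the spread between mice followed the trend with level, not each gene's own. Genes of lower level and genes led by 1 mouse were not covered. The mice of a group shared 1 library, so p-values measure the spread between mice within pools. Promoter windows are those of RefSeq, GRCm38.p6, matched by symbol. A few items that these rules choose are not reported here.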

Additional observations from a re-analysis of the deposited data

Results flagged for a closer look

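Of 88 groups of 4 or 5 mice checked for 1 mouse that stands apart, 9 had one. A chance rate of about 1 in 20 cannot be applied to this count, because some flags followed from sparse counts. In the groups flagged for cycling, Trdc and Gzma, only 1 mouse had any positive cell or UMI. Gonadotropin mouse 2 was low for cytotoxic members, at 5.88%. Cycling members were highest in gonadotropin mouse 3 (9.09%) and untreated mouse 5 (4.55%), and the latter also had the highest share with Trdc (4.55%), each of these being 1 cell. Untreated mouse 5 stood above the other untreated mice for Runx2 (85.4 CPM), Tbx21 (65.3 CPM) and Gzma (171 CPM), and below them for Stat4 (346 CPM). Abtb2 was high in untreated mouse 3, at 256 CPM. The change of Fhit with treatment differed between members and other CD8 T cells by -2.14 on the log2 scale, tested as an interaction.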

How the results depend on the processing

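The count of 1 gene called in the members became 0 with all 10 mice, without the 4 myeloid-rich members, without Ly6c2 in the rule (these 3 were chosen after seeing the data), with thinned cells, without cells that had NK or gamma delta UMIs, at a memory gene sum of at least 5, with mice of at least 20 cells and with RLE factors. It became 4 at a sum of at least 2 and 61 (16 higher, 45 lower) with no filter on low counts, and was 0 to 1 when 1 mouse was left out. The count of genes whose change differed from that of the other CD8 T cells ran from 0 to 2, and from NK cells from 0 to 1, when 1 mouse was left out. Shares of members kept their direction in all 48 alternatives, with differences of 11 to 16.3 percentage points for CD8 T cells when 1 mouse was left out. No state given here passed under any alternative. The difference stayed positive throughout for cytotoxic cells (6.79 to 25.8 points) and chemokine-expressing cells (2.65 to 22.6 points). Directions of the remaining states were unstable. The difference reversed to -1.06 points for Ly49 at 1500 UMIs, to 0.891 for gamma delta on unthinned counts, and to -11.3 (unthinned) and -8.47 (1500 UMIs) for inhibitory receptors. With 1 mouse left out it ran from -4.68 to 3.66 for Ikzf2, -0.476 to 4.07 for residency and -1.14 to 2.27 for cycling. The cause was not tested. Of the genes named, no change by treatment in the members reversed. No paired analysis was possible because the mouse numbers are only names and each group was 1 pool. With 11 to 37 members in each mouse tested, simulated data gave back 55 of 100 genes above 50 CPM that were changed by a fold of 2.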
